A study of Rattus norvegicus with 6 samples.

Results

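The let-7 and miR-98 guide strands are the 5p arms of 8 let-7 microRNAs (let-7a, b, c, d, e, f, g and i) and of miR-98. They were taken by name from a table of 764 rat miRNA entries, so they are 9 of 764 rows, and all 9 were among the 570 rows with a value above 0 in some library. Small RNA was sequenced in 6 libraries from male Sprague Dawley rats, from tissue labelled testicle. By their labels, the 3 HO-1 knockout (HO-1-/-) and the 3 wild type (WT) libraries differed in genotype only. Heme oxygenase 1 (HO-1) is the inducible enzyme that breaks down heme, and small RNA libraries do not measure its messenger RNA, so the genotype rests on the labels. In every rat of both genotypes the left testicle had been twisted by 720° for 2 h and then left in its natural position for 3 days, so no group without injury was analysed here. The labels give no age and no further allele, and nothing in them ties each library to an animal of its own. The p-values therefore measure the spread between these libraries.

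A miRNA precursor is cut into a short duplex, of which the guide strand is loaded into Argonaute and directs it to messenger RNAs, mainly by pairing of bases 2 to 8, the seed. The let-7 family was found in Caenorhabditis elegans as a timing switch of development and is abundant in differentiated mammalian tissues. LIN28 proteins block the maturation of its precursors, and RAS, HMGA2 and MYC are among its known targets in human cells. In mouse spermatogonia the family is known to rise when retinoic acid starts differentiation. In human liver cell lines let-7 has been reported to repress BACH1, itself a repressor of the HO-1 gene.

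The mature sequences, from RefSeq on GRCr8 and matched by name (with rno- for rat) for 9 of 9 members, are shown because they define both what the members share and how little separates their reads. Capitals mark the seed, and each line runs 5′ to 3′.
rno-let-7a-5p: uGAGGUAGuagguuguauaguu
rno-let-7b-5p: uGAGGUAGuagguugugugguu
rno-let-7c-5p: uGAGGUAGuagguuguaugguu
rno-let-7d-5p: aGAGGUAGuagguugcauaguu
rno-let-7e-5p: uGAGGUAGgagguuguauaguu
rno-let-7f-5p: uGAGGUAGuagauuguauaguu
rno-let-7g-5p: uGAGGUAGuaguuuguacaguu
rno-let-7i-5p: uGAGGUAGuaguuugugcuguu
rno-miR-98-5p: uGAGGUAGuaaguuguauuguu

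All 9 sequences are 22 bases long and share 1 seed, GAGGUAG. Among the 689 rows of the table that matched a RefSeq mature sequence, these 9 were the only ones with that seed. The differences therefore lie outside the seed. Counted from 1 at the 5′ end and with the base of let-7a first, let-7f has G12A, let-7c A19G and let-7e U9G, 1 substitution each. let-7b has A17G and A19G, let-7d U1A and U16C, let-7g G12U and U18C, and miR-98 G11A and A19U. let-7i is farthest from let-7a, with G12U, A17G, U18C and A19U. Over the 36 pairs the members differ at 1 to 6 positions, at 1 position in 4 pairs (let-7a with let-7c, let-7e and let-7f, and let-7b with let-7c) and at 2 positions in 10.

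No source used here says how mismatched reads were assigned, so a read of an abundant member with 1 wrong base could be counted as another. This bears most on let-7e, which stood at 1.30% to 1.89% of let-7a over the 6 libraries. let-7b, 1 base from let-7c, stood at 13.8% to 15.5% of it. Few reads were assigned to the 4 rows named miR-3596a to miR-3596d, which held 2 reads in all over the 6 libraries. The precursors of miR-3596a, miR-3596b and miR-3596c lie within 100 kb of let-7 precursors in RefSeq, and that of miR-3596d was not found there. Their strand was not compared. The members come from 12 precursors, and 6 members have a single one. let-7a, let-7c and let-7f each have 2, whose reads cannot be told apart.

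The libraries held 8300536 to 10042673 reads assigned to miRNAs, and values are reads per 1000000 of these (RPM). Although the tissue was labelled testicle, 17 markers of germ and Sertoli cells summed to 28.9 to 33.5 RPM in knockout libraries and 39.3 to 55.6 RPM in WT libraries, and 5 of the 17, among them miR-202-3p, stood at 0 in every library. The hepatocyte miRNA miR-122-5p held 46.4%, 40.2% and 43.7% of the reads in knockout libraries 1 to 3 and 32.7%, 36.3% and 36.6% in WT libraries 1 to 3. All 3 knockout shares were above every WT share. The list of 4 hepatocyte markers, miR-122-5p included, summed to 458885 to 515681 RPM in knockout libraries and 394281 to 435008 RPM in WT libraries. By the test 1 of the 4, miR-194-5p, was lower and none higher (miR-122-5p adjusted p = 0.095 in limma). The markers other than miR-122-5p had lower mean RPM in the knockout than in WT. These means were 42843.5 against 52273 for miR-192-5p, 10877 against 15124 for miR-194-5p and 1326 against 1420 for miR-122-3p. All values per total share 1 sum, so a larger share of 1 miRNA lowers the others. The endothelial pair miR-126a-3p and miR-126a-5p summed to 19147 to 21287 RPM in knockout libraries and 25222 to 26982 RPM in WT libraries, and both fell in the knockout. The smooth muscle pair miR-143-3p and miR-145-5p summed to 5576 to 7508 RPM in knockout libraries and 9558 to 14270 RPM in WT libraries, and both fell. None of 4 leukocyte markers passed, with sums of 811 to 923 RPM in knockout libraries and 757 to 871 RPM in WT libraries. None of 3 red blood cell markers passed, with sums of 330 to 418 RPM in knockout libraries and 435 to 547 RPM in WT libraries. The part of these shifts in the let-7 values was not tested. In tissue RNA, fewer cells of a type and less RNA per cell cannot be told apart.

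Which genotype had the higher level of the family as a whole depended on whether miR-122-5p was counted in the total. The 9 guide strands together made up 13.2%, 13.8% and 13.4% of all reads in knockout libraries 1 to 3 and 15.0%, 13.9% and 14.3% in WT libraries 1 to 3. Every knockout library lay below every WT library, although knockout library 2 and WT library 2 nearly met. Without miR-122-5p in the total the order turned round, at 24.7%, 23.1% and 23.7% in knockout libraries and 22.3%, 21.8% and 22.5% in WT libraries. Of all reads the mean was 13.5% ± 0.3 in the knockout and 14.4% ± 0.6 in WT, and of the reads other than miR-122-5p it was 23.8% ± 0.8 in the knockout and 22.2% ± 0.4 in WT (SD, n = 3 each). Leaving out miR-122-5p moved each log2 change by 0.20 on average.

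**Figure D1:**
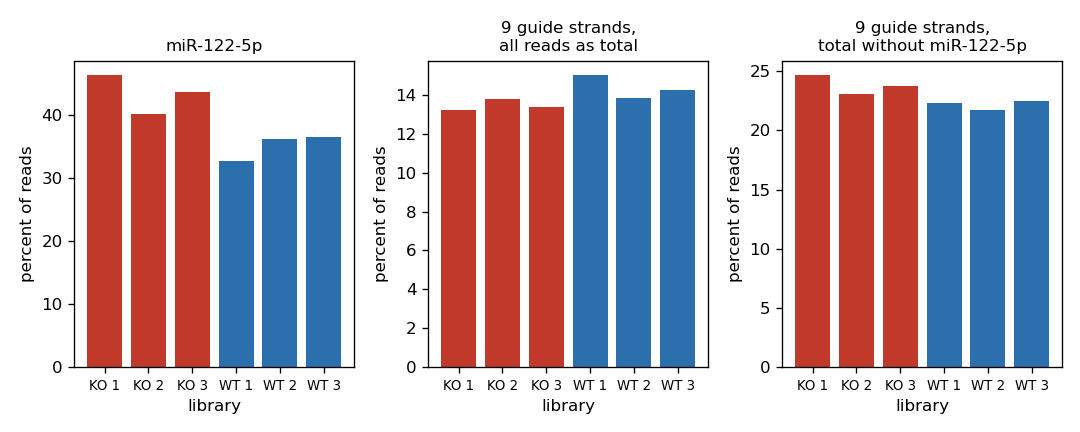
Bars give the percent of reads in each of the 6 libraries (3 HO-1 knockout, left, and 3 WT, right) for miR-122-5p, for the sum of the 9 guide strands with all reads as total, and for the same sum with miR-122-5p left out of the total. The guide strands are lower in the 3 knockout libraries in the middle panel (13.2% to 13.8%) and higher in the right panel (23.1% to 24.7%).

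Within the family, levels spanned a wide range and kept nearly the same order in every library. let-7f-5p, which has been linked to endothelial sprouting in human cells, came first with 172 to 253 times the RPM of miR-98-5p, the lowest on average. All members have the same length, so no scaling by length was needed, but ligation of adapters is known to favour some ends over others and its part in the order was not tested. let-7f-5p ranked 4 among all miRNAs in each library. Together with let-7g-5p, let-7a-5p and let-7c-5p it held 90.1% ± 0.4 of the family in the knockout and 90.5% ± 0.6 in WT (SD, n = 3 each). Of the 8 pairs of neighbours in the order let-7f, g, a, c, i, d, b, e and miR-98, 6 kept their order in 6 of 6 libraries. The exceptions were let-7g over let-7a, which turned in knockout library 1, and let-7e over miR-98, which also turned in knockout library 1. Both pairs overlapped in range among the knockout libraries, where their order was not beyond the spread. Among the WT libraries let-7g lay wholly above let-7a and let-7e wholly above miR-98. Counting error was small, at most 2.12% of the value, reached by miR-98-5p in its thinnest library, while the coefficient of variation between libraries ran up to 16.9% for let-7i-5p in WT.

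**Figure D2:**
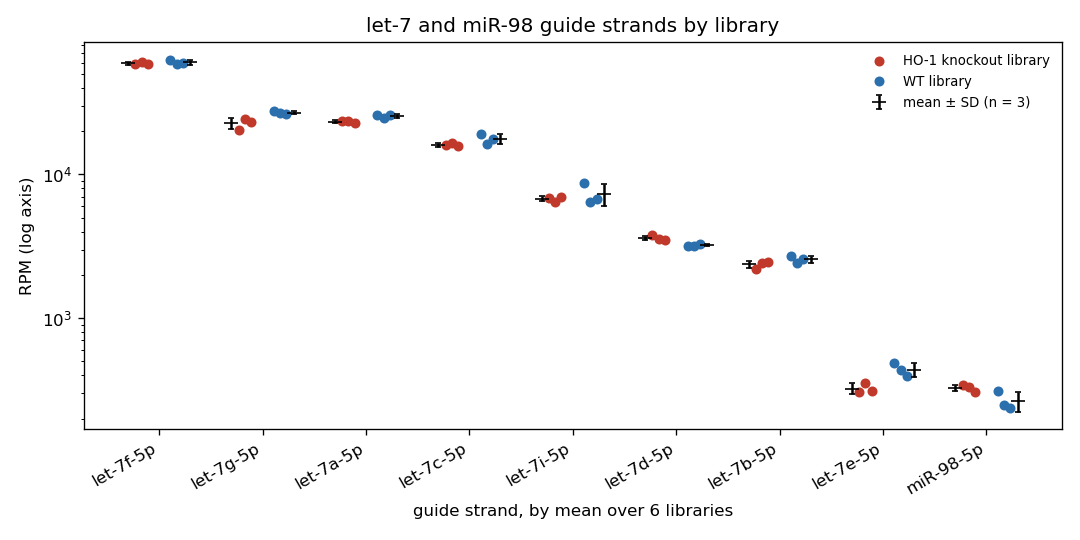
Each point is the RPM of 1 guide strand in 1 library on a log axis, with HO-1 knockout libraries left of WT libraries and black bars for mean ± SD (n = 3). The members descend from let-7f-5p, at 58230.4 to 62524 RPM, to let-7e-5p and miR-98-5p, at 235 to 489.9 RPM.

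The question the design poses is which of these levels differ between knockout and WT after the same injury. Per total, none of the 9 passed the test (limma on log2(RPM + 1) of 570 miRNAs, Benjamini-Hochberg adjusted p below 0.05), while 6.32% of all tested miRNAs and 17.5% of those with a mean of at least 100 RPM did. By an unadjusted p below 0.05, 2 of 9 did, against 19.3% of all tested, and edgeR's quasi-likelihood test on reads recovered from the RPM steps also called 0 of 9. The median log2 change was -0.12 over the members and -0.29 over the 218 miRNAs with a mean of at least 10 RPM. Knockout and WT ranges did not overlap for 4 members, against 26% of all tested miRNAs and 50% of the 120 with a mean of at least 100 RPM, as all members have, so 4 of 9 is near the background. The knockout was higher in 1 of the 4 and lower in 3, against 4.39% and 21.6% of all tested miRNAs. With miR-122-5p left out of the total, 2 of 9 rose, let-7d-5p and miR-98-5p, and none fell, while 7.73% of 569 miRNAs passed, 2.81% as higher and 4.92% as lower, and 22.4% of those of at least 100 RPM passed. A count of 2 of 9 is near that last share. Ranges did not overlap for 5 members, against 22.5% of all and 42.5% of those of at least 100 RPM, with 4 higher and 1 lower in the knockout, against 8.44% and 14.1% of all. Of the 2 calls, let-7d-5p was lost without any single library and miR-98-5p without any but WT library 1, so neither call is stable with fewer libraries. The log2 changes in these fits stayed at 0.30 to 0.41 for let-7d-5p and 0.44 to 0.61 for miR-98-5p. Relative to the family sum, which no longer depends on what else fills the libraries, none of the 9 passed, 6.67% of 570 miRNAs and 18.3% of those of at least 100 RPM did, and 3 of 9 had an unadjusted p below 0.05, against 19.6% of all.

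rno-let-7d-5p, known to repress HMGA2 in human lung epithelium, stood at 3763, 3576 and 3507 RPM in knockout libraries and 3187, 3179 and 3284 RPM in WT libraries. All 3 knockout values were above every WT value. Its log2 change per total was 0.17 (SE 0.08, adjusted p = 0.29 in limma). With miR-122-5p left out it stood at 7016, 5985 and 6225 RPM in knockout libraries and 4735, 4988 and 5176 RPM in WT libraries. On this scale it rose, by a log2 change of 0.37 (SE 0.09, 95% interval 0.16 to 0.57, adjusted p = 0.044 in limma). Knockout library 1 was the highest, and without it the log2 change was 0.30 (adjusted p = 0.13 in limma). With any single library left out it lay between 0.30 and 0.41 (adjusted p in limma between 0.072 and 0.13), and with the other hepatic miRNAs miR-192-5p, miR-194-5p and miR-148a-3p also left out of the total it was 0.33 (adjusted p = 0.066 in limma).

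rno-miR-98-5p, a family member encoded on the X chromosome beside let-7f-2, stood at 341, 332 and 308 RPM in knockout libraries and 313, 248 and 235 RPM in WT libraries. WT library 1 overlapped the knockout range, and the other WT libraries lay below it. The log2 change per total was 0.31 (SE 0.14, adjusted p = 0.26 in limma). With miR-122-5p left out, the values were 636, 555 and 547 RPM in knockout libraries and 464, 389 and 371 RPM in WT libraries, and the ranges no longer overlapped. It rose on this scale by a log2 change of 0.51 (SE 0.12, 95% interval 0.23 to 0.79, adjusted p = 0.043 in limma). Without WT library 1 the log2 change was 0.61 (adjusted p = 0.046 in limma), and without any other single library it did not pass (adjusted p in limma up to 0.14). It also passed per total after TMM scaling, with a log2 change of 0.54 (adjusted p = 0.024 in limma). In the authors' deposited table, miR-98-5p and let-7d-5p had the smallest p-values among the members, 0.0019 and 0.017, with log2 fold changes of 0.30 and 0.17. Neither the test behind those deposited p-values nor whether they were adjusted is given. They did not follow the size of the deposited log2 fold changes. let-7e-5p had -0.44 with a deposited p-value of 0.18, and let-7g-5p -0.25 with 0.78.

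rno-let-7e-5p, which is known to lower Toll-like receptor 4 in mouse macrophages, was the member with the most negative change. It stood at 307, 355 and 309.5 RPM in knockout libraries and 489.9, 433 and 393 RPM in WT libraries, with no overlap. The log2 change per total was -0.44 (SE 0.12, 95% interval -0.72 to -0.15), which did not pass (adjusted p = 0.091 in limma). With miR-122-5p left out it was -0.24 (SE 0.10, adjusted p = 0.23 in limma), and relative to the family sum -0.34 (SE 0.11, adjusted p = 0.13 in limma).

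rno-let-7g-5p, whose expression is known to slow lung tumours in mice, had the largest difference in RPM. Its values were 20405, 24137 and 23331 RPM in knockout libraries and 27479.9, 26785 and 26384 RPM in WT libraries. The groups did not overlap, and knockout library 1 was the lowest. The difference of the means, -4259 RPM, compares with -9216 RPM for the sum of all 9. The log2 change per total was -0.25 (SE 0.09, adjusted p = 0.16 in limma). It was -0.06 (SE 0.07, adjusted p = 0.72 in limma) without miR-122-5p in the total. On that scale the groups overlapped, and knockout library 1, at 38047 RPM, was still the lowest.

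The other abundant members lay closer together. let-7f-5p had 58739, 60684 and 58570 RPM in knockout libraries and 62524, 58230.4 and 59558 RPM in WT libraries, with overlap and a log2 change of -0.02 (SE 0.07, adjusted p = 0.88 in limma). With miR-122-5p left out it was 0.18 (SE 0.07, adjusted p = 0.23 in limma), all 3 knockout libraries being higher than WT, and with the test limited to the 234 miRNAs with a mean of at least 10 RPM the same change passed (adjusted p = 0.032 in limma). let-7a-5p, the strand identical to the founding let-7 of the worm, had 23636, 23378 and 22658 RPM in knockout libraries and 25864, 24737 and 26054 RPM in WT libraries. Those groups did not overlap per total, but the log2 change of -0.14 (SE 0.07, adjusted p = 0.34 in limma) became 0.06 with overlap when miR-122-5p was left out. let-7c-5p had 16008, 16649 and 15688 RPM in knockout libraries and 18985, 16201 and 17621 RPM in WT libraries, with overlap and a log2 change of -0.12 (SE 0.09, adjusted p = 0.47 in limma).

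rno-let-7i-5p, known to repress Toll-like receptor 4 in human bile duct cells, had 6902, 6462 and 6919.8 RPM in knockout libraries and 8683, 6398 and 6745 RPM in WT libraries. WT library 1 stood apart from the other 5 libraries, which overlapped. Its log2 change of -0.09 (SE 0.12, adjusted p = 0.71 in limma) was 0.04 without that library. let-7b-5p, known to promote differentiation of mouse neural stem cells, had 2214, 2432 and 2439 RPM in knockout libraries and 2693, 2438 and 2558 RPM in WT libraries, with a log2 change of -0.12 (SE 0.09, adjusted p = 0.49 in limma). The small negative changes of let-7a, b, c, f and i per total had a positive sign without miR-122-5p in the total and after TMM, RLE and upper-quartile scaling. The signs of let-7d and miR-98 (positive) and of let-7e and let-7g (negative) were the same in all 39 fits run. These fits reuse the same 6 libraries, and some, such as the replicate block, cannot change a sign, so their number is not repeated evidence. For let-7g-5p the log2 change was near 0 after TMM, RLE and upper-quartile scaling, at -0.028, -0.012 and -0.037. TMM scaling moved the median of miRNAs with a mean of at least 10 RPM to -0.07.

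**Figure D3:**
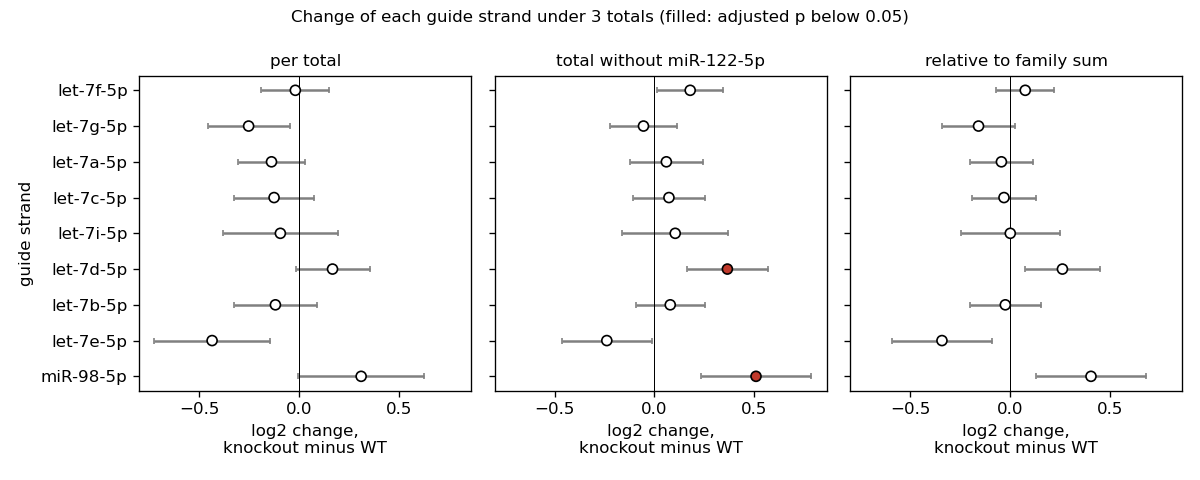
Points give the log2 change of each guide strand, HO-1 knockout minus WT, on log2(value + 1), with 95% intervals from limma (3 libraries a group), per total, with miR-122-5p left out of the total and relative to the family sum. Filled points, let-7d-5p (0.37) and miR-98-5p (0.51) in the middle panel, have an adjusted p below 0.05. The spacing between members is nearly the same in all panels by construction.

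Changing the total shifts all members of a library alike, so the distances between members are nearly fixed by construction, and from the lowest to the highest log2 change they spanned 0.75. As shares of the family, let-7f-5p held 44.4%, 44.0% and 43.8% in knockout libraries and 41.6%, 42.0% and 41.7% in WT libraries, a difference of 2.28 percentage points with no overlap. let-7g-5p held 15.4%, 17.5% and 17.4% in knockout libraries and 18.3%, 19.3% and 18.5% in WT libraries, 1.91 percentage points less in the knockout and also with no overlap. let-7d-5p held 2.84%, 2.59% and 2.62% in knockout libraries and 2.12%, 2.29% and 2.30% in WT libraries. The shares of 5 members did not overlap between genotypes, 3 being higher and 2 lower in the knockout, against 25.1% of all 570 miRNAs scaled in the same way (7.02% higher, 18.1% lower) and 47.5% of those of at least 100 RPM. A count of 5 of 9 is again near that background. The members' shares add up to a fixed whole, so a larger share of let-7f-5p goes with smaller shares of others. The 5 are thus not independent, and the background has no such constraint. Per total the log2 change of let-7f-5p was only -0.02. The remaining non-overlapping shares were those of let-7e-5p, at 0.240% ± 0.015 in the knockout and 0.305% ± 0.026 in WT, and miR-98-5p, at 0.243% ± 0.014 in the knockout and 0.184% ± 0.022 in WT (SD, n = 3 each). In the knockout both thus held nearly equal shares, whereas in WT let-7e-5p had 1.57 to 1.75 times the RPM of miR-98-5p. This pair has the lowest and the highest change of the family, so its contrast is a description and was not tested.

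**Figure D4:**
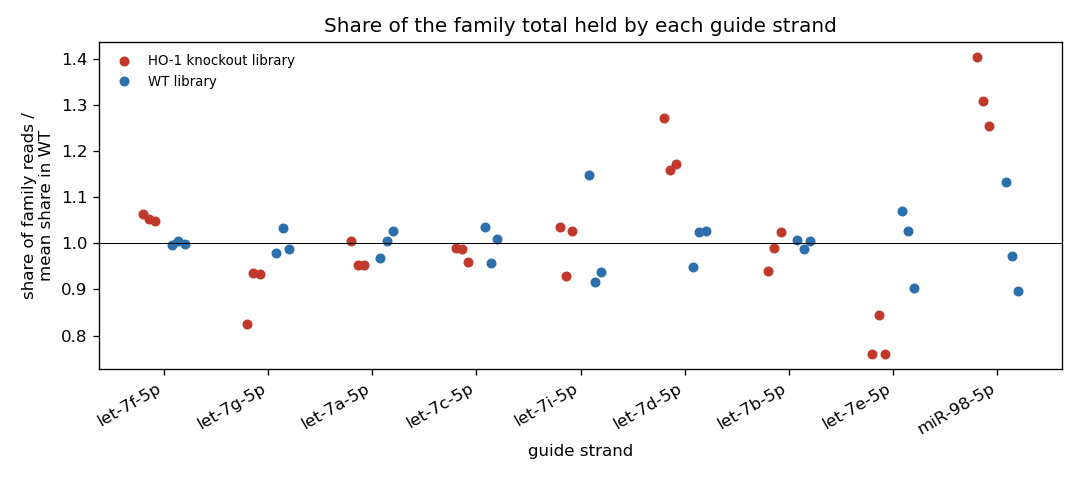
Each point is the share of the family's reads held by 1 guide strand in 1 library, divided by the mean share in the 3 WT libraries, with HO-1 knockout libraries left of WT libraries. Points for let-7f-5p, let-7d-5p and miR-98-5p are higher in all knockout libraries, those of let-7g-5p and let-7e-5p lower, and those of let-7a, b, c and i overlap.

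Guide strands that lie together in the genome did not all keep a fixed ratio. The RefSeq gene table on GRCr8 places the precursors let-7a-1, let-7f-1 and let-7d together, let-7c-2 beside let-7b, let-7f-2 beside miR-98 within Huwe1, let-7a-2 near miR-100 and miR-125b-1, let-7c-1 near miR-99a and miR-125b-2, and let-7e beside miR-99b and miR-125a within Spaca6. let-7g overlaps both Rpl29 and Wdr82 and, like let-7i, has no other miRNA precursor within 100 kb in that table. let-7d-5p was 15.9%, 15.3% and 15.5% of let-7a-5p in knockout libraries and 12.3%, 12.9% and 12.6% in WT libraries. That ratio was higher in every knockout library than in any WT library. miR-98-5p was 0.551% ± 0.028 of let-7f-5p in the knockout and 0.440% ± 0.054 in WT (SD, n = 3 each), also without overlap. let-7b-5p was 14.7% ± 0.9 of let-7c-5p in the knockout and 14.6% ± 0.4 in WT, with overlap. Because let-7a, let-7c and let-7f sum reads from 2 precursors each, these ratios are not those of a single transcript. How often ratios of other miRNA pairs fail to overlap was not computed, here or for the partners below.

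Of the 5 partners from the miR-99, miR-100 and miR-125 families, 2 fell per total and 3 did not pass, against 6.32% of all tested miRNAs called and 17.5% of those with a mean of at least 100 RPM, as all 5 have. These families are known from stem cell and blood cell regulation. miR-100-5p stood at 489 ± 28 RPM in the knockout and 798 ± 52 RPM in WT (SD, n = 3 each), with a log2 change of -0.70 (SE 0.10, adjusted p = 0.015 in limma). miR-125b-5p stood at 2545 ± 296 RPM in the knockout and 4857 ± 723 RPM in WT, with a log2 change of -0.93 (SE 0.14, adjusted p = 0.015 in limma). Both calls were lost without knockout library 3 (adjusted p = 0.071 in limma). miR-99a-5p, at 14826 ± 1124 RPM in the knockout and 20725.5 ± 3058 RPM in WT, did not pass (adjusted p = 0.062 in limma), though it did in edgeR on recovered reads (adjusted p = 0.017). In limma miR-99b-5p (adjusted p = 0.84) and miR-125a-5p (adjusted p = 0.64) did not pass. Beside these, let-7c-5p was 114%, 103% and 109.9% of miR-99a-5p in knockout libraries and 80.1%, 92.1% and 84.4% in WT libraries. let-7e-5p was 72.3%, 71.6% and 68.6% of miR-99b-5p in knockout libraries and 93.3%, 84.6% and 101% in WT libraries. The let-7c ratio was thus higher and the let-7e ratio lower in every knockout library, with no background of other pairs beside them. Of single miRNAs with a mean of at least 100 RPM, 50% did not overlap per total.

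**Figure D5:**
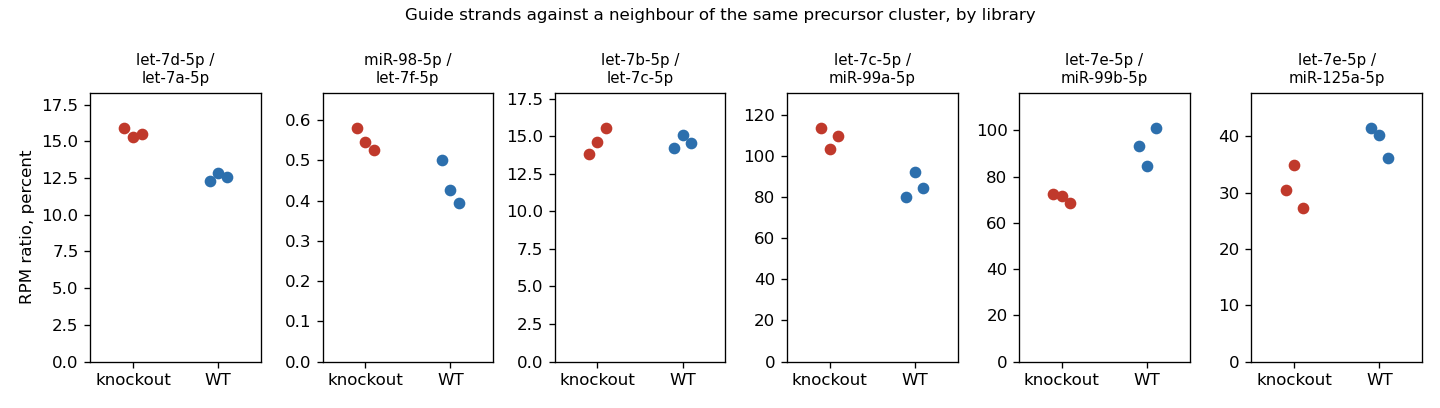
Each point is the RPM of 1 guide strand as a percent of a neighbour from the same precursor cluster in 1 library, with HO-1 knockout left of WT and 3 libraries each. The ratios of let-7d to let-7a, miR-98 to let-7f and let-7c to miR-99a are higher in all knockout libraries, those of let-7e to miR-99b and to miR-125a lower, and that of let-7b to let-7c overlaps (13.8% to 15.5%).

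The passenger strands, which are mostly degraded, numbered 12 rows. With the equal rows of let-7c-2-3p and let-7a-1-3p counted once, they amounted to 0.70% to 0.80% of the guide strands in RPM. Per total 1 of 12 fell, which is near the 6.32% of all tested miRNAs called. It was let-7f-2-3p, with 9.40, 10.7 and 7.79 RPM in knockout libraries and 17.1, 21.3 and 16.9 RPM in WT libraries, a log2 change of -0.92 (SE 0.21, adjusted p = 0.047 in limma). Leaving out any 1 library ended that call (adjusted p in limma between 0.065 and 0.19), as did leaving miR-122-5p out of the total (adjusted p = 0.067 in limma). The most abundant rows, those of let-7c-2-3p and let-7a-1-3p, held the same values in every library and cannot be told apart, at 654 ± 27 RPM in the knockout and 775 ± 42 RPM in WT (SD, n = 3 each; adjusted p = 0.20 in limma). let-7f-2-3p comes from the same genomic neighbourhood as miR-98-5p, whose value was higher in the knockout on average.

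Among 38 other miRNAs with a mean of at least 1000 RPM, the profiles most like that of the family sum over the 6 libraries were those of miR-125a-5p, miR-30e-5p, miR-122-3p and miR-29a-3p. Likeness was the root mean square difference between log2(RPM + 1) profiles, each centred on its own mean. It was 0.064, 0.073, 0.081 and 0.089 for these 4, beside a median of 0.18 over the 38. Among the members it ran from 0.039 for let-7f-5p to 0.23 for miR-98-5p, with let-7a, b, c and f all at 0.041 or less although let-7b-5p adds little to the sum. Each member is itself part of the sum, let-7f-5p most of all, so small distances of abundant members are partly built in. The members' values are therefore not comparable with those of the 38. All 6 points share the genotype contrast and the share of miR-122-5p, and the order is a description.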

How the data were processed

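Small RNA libraries were made from total RNA with a ligation-based kit and sequenced as single-end reads, per the labels' protocols. The authors deposited 1 table with RPM, reads per 1000000 reads assigned to 764 miRNA entries, rounded to 2 decimals, and per the file headers each genotype's mean RPM, a log2 fold change and a p-value. That log2 value is the log2 ratio of the deposited means. The submitters' processing notes name FastQC, BWA, edgeR and the build rn6, without role or version. The sources used here give neither trimming, nor mismatch rules, nor how reads matching several miRNAs were treated. All 6 library columns matched their samples by name, with 0 unmatched sample columns.

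In limma 3.58.1 (R 4.3.3), with its intensity trend, log2(RPM + 1) of the 570 rows above 0 in at least 1 library was modelled on genotype alone, with p-values adjusted by the Benjamini-Hochberg method and a threshold of 0.05. The fit was repeated with miR-122-5p removed from each total and with each library scaled to an equal sum of the 9 members. Shares and ratios were not tested. RPM values fell on multiples of 1 step, so whole reads were recovered. Of the values above 0, 97.8% to 98.9% lay within 0.0051 RPM of whole reads, and edgeR 4.0.16, as an alternative, called 48 miRNAs on them. The step of WT library 1 lies so close to 0.1 RPM that its total rests on the higher values. Reads are not independent molecules, so counting errors cover counting only. The limma fits per total and relative to the family sum, and the edgeR fit, were checked on simulated data with known changes. Those changes were set in other miRNAs, with the members and the most abundant miRNAs left unchanged. The check therefore does not cover changes in the members or a total shifted by miR-122-5p. The fit without miR-122-5p in the total and the other alternatives were not checked in this way.

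Members, lists and tests were chosen with earlier results of these data known. Named besides the members were miR-122-5p, the miR-99, miR-100 and miR-125 partners, passenger strands that passed or were most abundant, the 4 most similar miRNAs and cell type markers. The alternatives tried were TMM, RLE and upper-quartile scaling, pseudocounts of 0.1 and 5, a mean of at least 10 RPM, the replicate number as a block, and each library left out. Further ones left 4 miRNAs out of the total or scaled to the family's geometric mean.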

Additional observations from a re-analysis of the deposited data

How the results depend on the processing

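Among 324 alternative values of the members' log2 changes, 282 kept their direction and side of the threshold, 23 had the other sign, 15 lost and 4 gained a call. Per total, 0 members were called, but 1 with TMM, 1 with RLE and 1 with upper-quartile scaling, miR-98-5p each time. With miR-122-5p left out of the total, 2 were called, against 3 among miRNAs with a mean of at least 10 RPM (let-7f-5p as well), 0 with a pseudocount of 5, 1 in the replicate block, 1 with 4 miRNAs left out of the total and 0 to 1 with a library left out. Relative to the family sum, 0 members were called in any setting. Over all miRNAs, the calls with a library left out numbered 5 to 26 per total (36 with all 6), 6 to 35 without miR-122-5p in the total (44) and 12 to 34 relative to the family sum (38). In the replicate block 22 were called per total. Same-numbered libraries deviated together with r of 0.03, 0.18 and 0.20 over 218 miRNAs, and differently numbered ones with r of -0.29 to 0.06. The values of 0.18 and 0.20 were the highest of all pairs, so whether the numbers pair the libraries was not settled. The main fits did not pair them. In the replicate block without miR-122-5p in the total, let-7d-5p did not pass (adjusted p = 0.085 in limma).

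Signs turned only for uncalled values. Per total, TMM, RLE and upper-quartile scaling gave log2 changes of 0.087, 0.10 and 0.077 for let-7a-5p, 0.11, 0.12 and 0.10 for let-7b-5p, 0.10, 0.12 and 0.090 for let-7c-5p, 0.21, 0.22 and 0.20 for let-7f-5p and 0.13, 0.15 and 0.12 for let-7i-5p. They gave 0.18, 0.19 and 0.17 for miR-99b-5p and 0.14, 0.15 and 0.13 for miR-125a-5p. With a library left out, let-7f-5p ranged from -0.041 to 0.011, let-7i-5p from -0.18 to 0.041 and miR-99b-5p from -0.19 to 0.030 per total. Relative to the family sum, let-7b-5p ranged from -0.052 to 0.010 and let-7i-5p from -0.058 to 0.10, and let-7i-5p was at -0.015 with the geometric mean. For these changes the cause was not tested. With 3 libraries a group, the 95% intervals of the members' changes per total were 0.34 to 0.63 wide on the log2 scale.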
